A study of Mus musculus with 16 samples.

Results

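The genes described here are 9 that encode surface proteins of macrophages and dendritic cells: Cd80, Cd86, Cd40, Cd83, Cd274, Pdcd1lg2, Icosl, Havcr2 and Cd200r1. Most take part in how these cells stimulate or restrain T cells, while Havcr2 and Cd200r1 encode inhibitory receptors that myeloid cells carry themselves. The genes were chosen by symbol, and 9 of 9 were found among the 12394 genes measured, on 15 of 22690 probe sets of an Affymetrix 3' array. Each gene is given by its brightest probe set that names it alone, and other probe sets, where there are any, serve as a check. Cd83, Cd274, Pdcd1lg2, Havcr2 and Cd200r1 each have only 1 such probe set, so this check is missing for them. Values are log2 expression, so a difference of 1 is a doubling, and they describe 1 probe set across mice; levels of different genes are not set against each other.

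The RNA came from cells of mouse gliomas sorted for CD11b and against Gr1, which takes in macrophages, with 1 array per mouse. There were 8 BLZ945 mice, given an agent that blocks the CSF-1 receptor of macrophages at a labelled dose of 200 mg once per day for 7 days, and 8 Vehicle mice given 20% captisol on the same schedule. Mice of both groups were Nestin-Tv-a;Ink4a/Arf-/- on a mixed background, so the macrophages also lack Ink4a/Arf, and both were injected in the brain at 5 to 6 weeks of age with DF-1 chicken cells that release the RCAS-PDGF-B-HA retrovirus. The virus infects only cells that express its receptor from the Nestin promoter. The BLZ945 group had 5 females and 3 males, 4 of them 11.29 and 4 of them 13.14 weeks old, and the Vehicle group had 4 of each sex at 11.29 weeks (4 mice), 11.43 weeks (2) and 12.29 weeks (2). The labelled initial tumour volume, without a unit, was 41.3 to 132.3 in 8 BLZ945 mice and 11.9 to 27.3 in 6 Vehicle mice, with no overlap, so volume and agent cannot be told apart.

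As background, a T cell that recognises antigen also reads a second signal from the presenting cell. CD80 and CD86 bind CD28, which activates, or CTLA-4, which restrains, and ICOS ligand binds ICOS; CD40 receives the CD40 ligand of helper T cells and strengthens presentation. PD-L1, encoded by Cd274, and PD-L2, encoded by Pdcd1lg2, bind PD-1 and dampen T cells, and interferon gamma is a known inducer of PD-L1 in macrophages. TIM-3, encoded by Havcr2, and the CD200 receptor, encoded by Cd200r1, are inhibitory receptors that myeloid cells carry themselves.

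Cd83, a marker of activated antigen-presenting cells that also stabilises surface MHC class II and CD86, was the only 1 of the 9 genes that passed the test between agents, and it rose in BLZ945. The other 8 did not pass. In all, 984 of 12394 genes passed (limma, Benjamini-Hochberg adjusted p under 0.05 over all genes), which is 7.94% in either direction, 2.6% higher and 5.34% lower, so 1 of 9 is near the background and is not a result about the 9 genes as a set. The median difference was -0.10 over the 9 genes, with 4 above and 5 below 0, beside 0.07 over all genes. Several of these genes varied widely between mice of the same agent: the pooled SD was 1.10 for Pdcd1lg2, 0.97 for Cd274 and 0.85 for Cd40, beside a median of 0.31 over all genes, and 99.1%, 98.6% and 97.9% of genes had a lower one.

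The 9 macrophage and microglia markers had means over the 16 arrays of 9.48 to 13.63. Levels of different probe sets cannot be compared, so such values do not show which other cells were present. The brightest were Csf1r, the gene of the receptor that BLZ945 blocks, at 13.66 ± 0.12 in BLZ945 and 13.61 ± 0.14 in Vehicle (SD, n = 8 each), and Tyrobp, an adaptor gene, at 13.32 ± 0.13 and 13.17 ± 0.11 in these groups, while Itgam, which encodes the sorted CD11b, fell by 1.17 (limma adjusted p = 0.00807). The mean of these markers was 11.25 to 11.85 in BLZ945 mice and 11.48 to 11.99 in Vehicle mice. Glioma and oligodendrocyte precursor markers, 4 of 7 of which fell, averaged 5.73 to 7.63 in BLZ945 and 7.13 to 8.67 in Vehicle. The brightest of them were Cnp, which differed by 0.10 and did not pass, and Olig1, which fell by 1.95 (limma adjusted p = 0.00685). Array medians ran from 5.74 to 5.87 and the highest correlation between 2 arrays was 0.991. In such sorted bulk RNA, a change in the number of cells of a type cannot be told apart from a change of RNA per cell.

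The start regions of Cd274 and Pdcd1lg2, both on chromosome 19, are shown because these genes had the closest pattern over the mice of any pair among the 9. The sequences are RefSeq's for GRCm38.p6, plus strand, from 250 bases before to 50 bases after a listed start. They lie at chr19:29367188-29367487 for Cd274 and chr19:29410669-29410968 for Pdcd1lg2. The span listed for the Cd274 gene on this build begins farther upstream, at 29362107, and the region around that beginning is not shown here. The RefSeq table held such a region for 5 of the 9 genes, the others being Cd80, Icosl and Havcr2.
Cd274: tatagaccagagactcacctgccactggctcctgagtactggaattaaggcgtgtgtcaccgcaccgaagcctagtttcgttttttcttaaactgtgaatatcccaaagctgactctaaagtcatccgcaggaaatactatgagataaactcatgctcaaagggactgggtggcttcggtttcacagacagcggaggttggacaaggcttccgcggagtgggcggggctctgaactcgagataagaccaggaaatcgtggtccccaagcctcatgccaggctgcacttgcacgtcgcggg
Pdcd1lg2: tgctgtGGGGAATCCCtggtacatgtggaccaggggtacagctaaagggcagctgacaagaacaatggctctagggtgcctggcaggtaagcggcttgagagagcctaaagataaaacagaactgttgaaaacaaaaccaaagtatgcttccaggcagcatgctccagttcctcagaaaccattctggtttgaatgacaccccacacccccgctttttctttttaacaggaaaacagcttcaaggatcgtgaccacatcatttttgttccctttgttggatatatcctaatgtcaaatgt
The capitals mark the only match found, 1 NF-kB motif in the Pdcd1lg2 region; the Icosl region also held 1, and those of Cd80 and Havcr2 none of the 3 motifs. Matches of letters describe the window and show no binding. Both strands were searched for the NF-kB motif, for the interferon gamma activated site TTCNNNGAA and for the core of the interferon-stimulated response element, GAAANN directly followed by GAAA. Among all 32851 regions of this length, 8.46% held the NF-kB motif, 8.3% TTCNNNGAA and 3.44% the response element core. Neither region held one of the interferon motifs as spelled here.

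**Figure D1:**
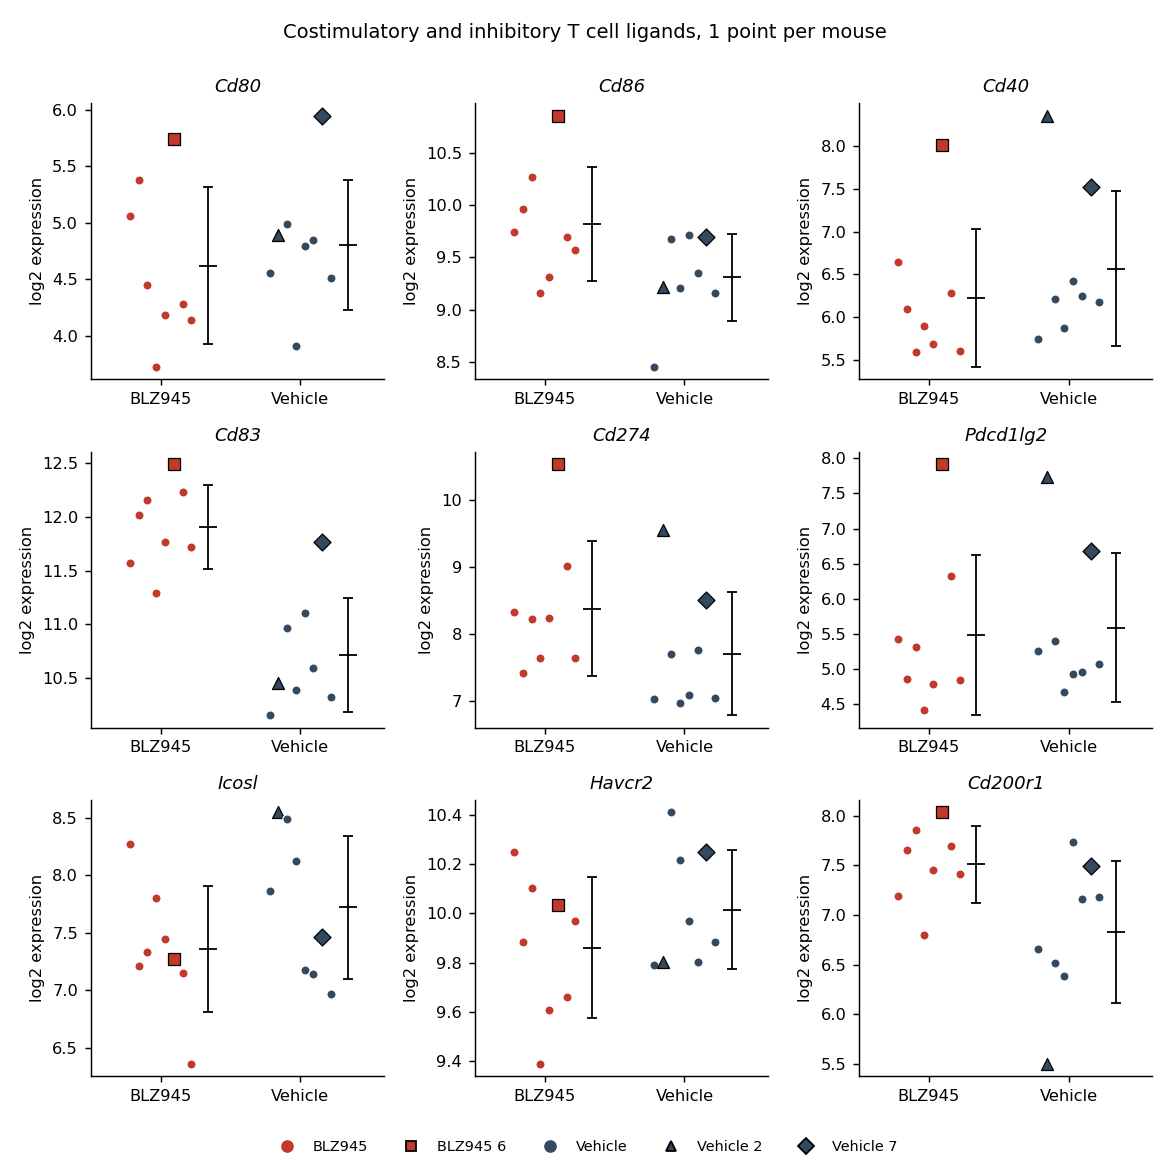
Log2 expression of the 9 genes in each mouse (points), with BLZ945 on the left and Vehicle on the right of each panel; bars beside the points are mean ± SD over 8 mice. Cd83 lies higher in BLZ945 with Vehicle 7 as the exception, and BLZ945 6, Vehicle 2 and Vehicle 7 are the 3 highest mice for Cd40 and Pdcd1lg2.

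Cd83 had a lowest, median and highest value of 11.29, 11.89 and 12.49 in BLZ945 mice, against 10.16, 10.52 and 11.77 in Vehicle mice. Every BLZ945 mouse lay above 7 of the 8 Vehicle mice, and the groups overlapped through Vehicle 7 alone, which exceeded 4 BLZ945 mice. Mean Cd83 was 11.91 ± 0.39 in BLZ945 and 10.72 ± 0.53 in Vehicle (SD, n = 8 each), a rise of 1.19 (SE 0.21, limma adjusted p = 0.0018), or 2.28-fold. An exact two-sided permutation test over the 12870 labellings of the mice gave p = 0.000932, with adjusted p = 0.0247 over all genes. The difference was 1.10 to 1.34 with any 1 mouse left out (limma adjusted p 0.000285 to 0.00528).

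Among mice of 11.29 weeks, the only age that held both agents, Cd83 was 12.06 ± 0.38 in BLZ945 and 10.96 ± 0.61 in Vehicle (SD, n = 4 each). That difference of 1.10 was close to the one over all mice, but it did not pass in this smaller set (limma adjusted p = 0.144), in which 0.718% of genes passed, nor with age cohort as a covariate (0.0715). In females it was 1.19 (limma adjusted p = 0.00903) and in males alone 1.32 (0.245), and the interaction of agent and sex was -0.13 (SE 0.39, limma adjusted p = 0.988). With the labelled volume as a covariate in 14 mice the difference was 0.25 (limma adjusted p = 0.721). Over its 16 other alternatives besides left-out mice the adjusted p of Cd83 ran from 9.03e-05 to 0.721, and 12 of them kept the call. These are not separate checks throughout. Cd83 has 1 probe set, so the alternatives that change the probe set reuse its values. The age cohort covariate and the subset of 11.29 weeks give the same difference.

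The 2 B7 ligands of CD28 and CTLA-4 did not pass. Cd86 had a lowest, median and highest value of 9.16, 9.72 and 10.86 in BLZ945 mice, against 8.45, 9.29 and 9.72 in Vehicle mice. Of the BLZ945 mice, 4 of 8 lay above every Vehicle mouse, and the rest lay among them. Mean Cd86 was 9.82 ± 0.55 in BLZ945 and 9.31 ± 0.42 in Vehicle (SD, n = 8 each), a difference of 0.51 with a 95% interval of 0.05 to 0.98 (limma adjusted p = 0.176 over all genes). Its second probe set differed by 0.13 (limma adjusted p = 0.760) although the pair moved together over the mice (r = 0.905 of deviations from group means, n = 16). Within the mice of 11.29 weeks Cd86 was 9.74 to 10.86 in BLZ945 and 9.20 to 9.72 in Vehicle (n = 4 each), without overlap, as in 9.68% of all genes at that group size (limma adjusted p = 0.218). On the second probe set these mice overlapped, at 9.39 to 10.41 in BLZ945 and 9.21 to 9.56 in Vehicle. Cd86 passed with the SD of each array as a covariate (0.80, limma adjusted p = 0.00414), and over its other alternatives besides left-out mice the adjusted p reached 0.903. Array SD was 2.22 to 2.43 in BLZ945 and 2.30 to 2.49 in Vehicle, and its part in the result was not tested further.

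Cd80, on a dim probe set whose mean was 4.71, had a lowest, median and highest value of 3.73, 4.37 and 5.74 in BLZ945 mice, against 3.91, 4.82 and 5.95 in Vehicle mice. The ranges overlapped almost fully. The difference was -0.19 with a 95% interval of -0.78 to 0.41 (limma adjusted p = 0.71). One of its other probe sets followed it over the mice (r = 0.74, n = 16) and the remaining ones ran against it (-0.24 and -0.76). These 3 differed by 0.30, 0.14 and 0.19, opposite in sign to the brightest one and likewise not passing (limma adjusted p 0.349 to 0.409), so no direction can be given for Cd80.

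Icosl, the ligand of ICOS, had a lowest, median and highest value of 6.36, 7.30 and 8.27 in BLZ945 mice, against 6.96, 7.67 and 8.55 in Vehicle mice. Vehicle 1, 2, 3 and 4 lay between 7.87 and 8.55 and Vehicle 5, 6, 7 and 8 between 6.96 and 7.47, while only BLZ945 1 reached 8 in the other group. The agent difference was -0.36 with a 95% interval of -0.92 to 0.19 (limma adjusted p = 0.418). Its second, dimmer probe set differed by 0.09 (limma adjusted p = 0.757) and followed the first only loosely (r = 0.215, n = 16).

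Cd40, the receptor for the CD40 ligand, had a lowest, median and highest value of 5.60, 6.00 and 8.01 in BLZ945 mice, against 5.74, 6.23 and 8.35 in Vehicle mice. Most mice, 7 BLZ945 and 6 Vehicle, lay between 5.60 and 6.64, and BLZ945 6, Vehicle 7 and Vehicle 2 stood above them at 8.01, 7.52 and 8.35. The difference between agents was -0.34 with a 95% interval of -1.13 to 0.45 (limma adjusted p = 0.6). The second Cd40 probe set differed by -0.29 and its deviations followed those of the first (r = 0.917, n = 16), with BLZ945 6, Vehicle 2 and Vehicle 7 the 3 highest mice on both.

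**Figure D2:**
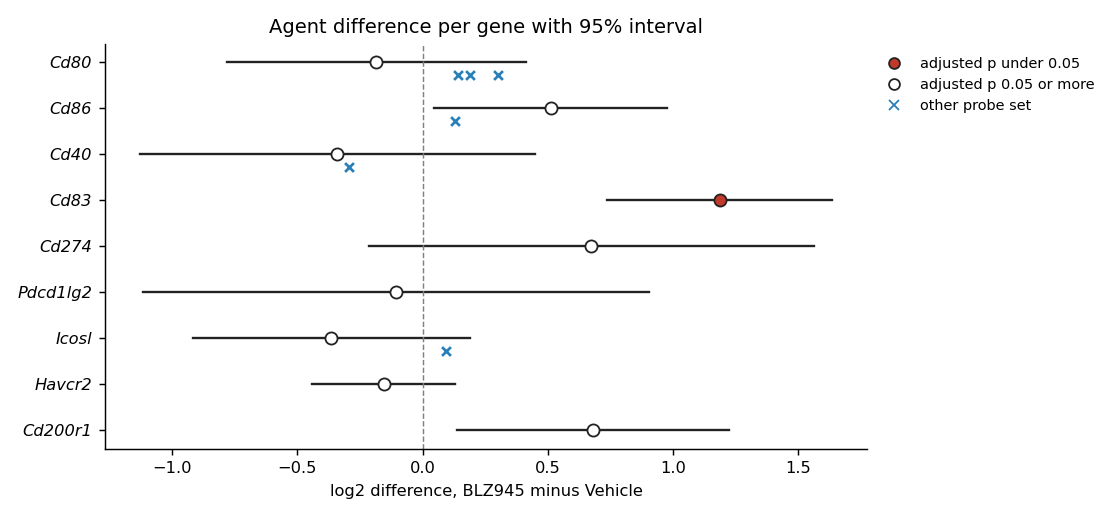
Log2 difference between BLZ945 and Vehicle for each gene (circles, filled where the adjusted p was under 0.05) with its 95% interval (lines), and the difference of each gene's other probe sets (crosses). Only Cd83, at 1.19, passed; the intervals of Cd274 and Pdcd1lg2 are among the widest.

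The PD-1 ligands differed more between mice than between agents. Cd274 had a lowest, median and highest value of 7.41, 8.24 and 10.54 in BLZ945 mice, against 6.96, 7.39 and 9.56 in Vehicle mice. Of the Vehicle mice, 4 lay below every BLZ945 mouse, and Vehicle 2 lay above all BLZ945 mice but BLZ945 6. Mean Cd274 was 8.38 ± 1.01 in BLZ945 and 7.70 ± 0.92 in Vehicle (SD, n = 8 each), a difference of 0.68 with a 95% interval of -0.22 to 1.57 (limma adjusted p = 0.357). With 1 mouse left out it lay between 0.37 and 0.94, and without BLZ945 6 it was the lower of these.

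Pdcd1lg2 had a lowest, median and highest value of 4.41, 5.08 and 7.92 in BLZ945 mice, against 4.67, 5.16 and 7.73 in Vehicle mice. The ranges were nearly the same, and 12 of the 16 mice lay between 4.41 and 5.43. Mean Pdcd1lg2 was 5.48 ± 1.14 in BLZ945 and 5.59 ± 1.06 in Vehicle (SD, n = 8 each), a difference of -0.10 with a 95% interval of -1.12 to 0.91 (limma adjusted p = 0.909). An interval this wide does not show that the agents act alike on the gene, and the sign turned without Vehicle 2 (0.20), Vehicle 7 (0.05) or BLZ945 4 (0.05).

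The same few mice were high for both PD-1 ligands and for Cd40. BLZ945 6 had the highest Cd274 (10.54) and Pdcd1lg2 (7.92) of all mice and Vehicle 2 had the next highest of each (9.56 and 7.73). BLZ945 7 (9.01 and 6.32) and Vehicle 7 (8.51 and 6.68) took the next places. Deviations from the group means of Cd274 and Pdcd1lg2 correlated at r = 0.958 and rho = 0.797 over 16 mice (permutation within agents, p = 2e-05 and 0.00062, adjusted over the 36 pairs of the 9 genes 0.00072 and 0.0112). Without BLZ945 6 and Vehicle 2, the mice farthest from the median, r was 0.856, and it was 0.966 within BLZ945 and 0.948 within Vehicle. The arrays share their normalization and part of their noise, which such correlations also hold.

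Cd40 followed Cd274 with r = 0.896 and rho = 0.641 (permutation p = 0.0003 and 0.00977, adjusted 0.00369 and 0.0391), r = 0.649 without Vehicle 2 and BLZ945 6, 0.853 within BLZ945 and 0.948 within Vehicle. Its r with Pdcd1lg2 was 0.914, but rho was 0.612 with an adjusted permutation p of 0.0566, and r was 0.708 without Vehicle 2 and BLZ945 6. Cd83 and Cd86 also moved together (r = 0.785, rho = 0.788, permutation p = 0.00041 and 0.00046, adjusted 0.00369 and 0.0112), with 0.741 without BLZ945 6 and Vehicle 1. Within BLZ945 that r was 0.835 and within Vehicle 0.799. Among the 36 pairs, 6 passed by both measures, 5 of them positive. Cd80, on its dim probe set, passed with Cd86 (r = 0.688, rho = 0.715, adjusted permutation p = 0.0294 and 0.0324). It also passed with Cd40 (r = 0.669, rho = 0.685, adjusted permutation p = 0.0296 and 0.0324). Without Vehicle 7 and BLZ945 6 these r were 0.499 and 0.399. The negative pair joined Icosl and Cd200r1 (r = -0.695, rho = -0.738, permutation p = 0.00379 and 0.00377, adjusted 0.0233 and 0.0324). Its r was -0.421 within BLZ945, -0.853 within Vehicle, and -0.841 without BLZ945 1 and BLZ945 8.

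**Figure D3:**
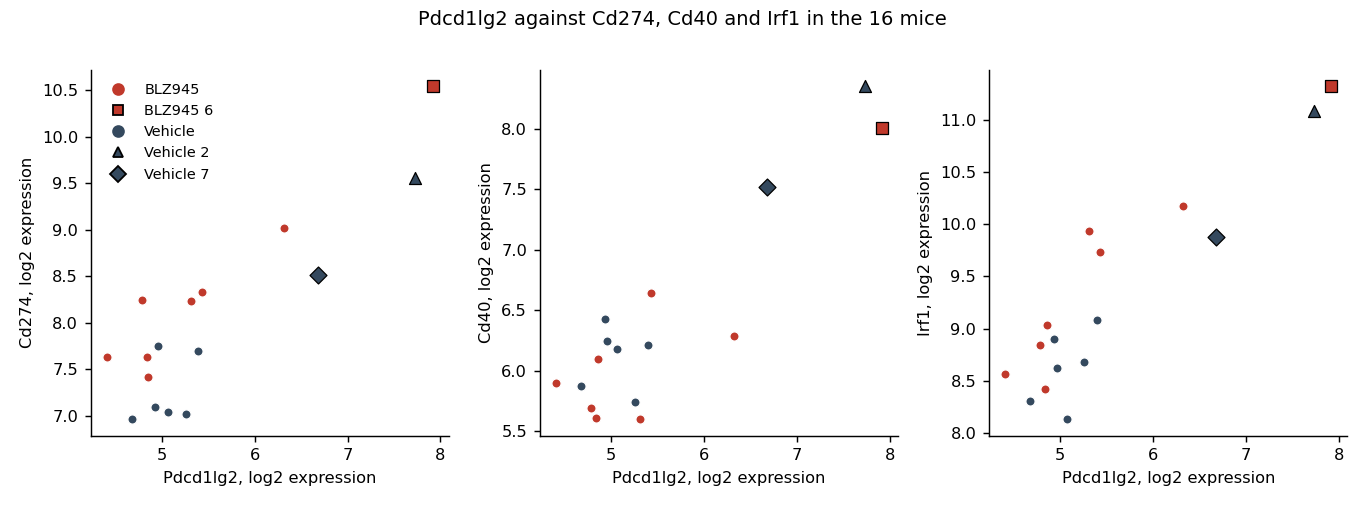
Each point is 1 mouse, with log2 Pdcd1lg2 on the x axis and log2 Cd274, Cd40 or Irf1 on the y axis; BLZ945 mice are red and Vehicle mice dark. BLZ945 6 and Vehicle 2 lie at the upper right of all 3 panels, above 7.7 in Pdcd1lg2.

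Over all 12394 genes, those whose deviations followed Cd274 most closely were Pdcd1lg2 (r = 0.958), the complement factor B gene Cfb (0.952) and the peptide transporter gene Tap1 (0.951). For Pdcd1lg2 they were Cd274, Irf1 (0.951), which encodes a transcription factor induced by interferon gamma, and Cfb (0.942), and for Cd40 they were Cfb (0.922), Ffar2 (0.922) and the interferon-inducible GTPase gene Ifi47 (0.917). These are descriptions over 16 mice picked as the highest of many. Irf1 itself was 11.32 in BLZ945 6 and 11.08 in Vehicle 2, and between 8.13 and 10.18 in the other mice. Its mean of 9.50 ± 0.98 in BLZ945 and 9.08 ± 0.97 in Vehicle (SD, n = 8 each) gave a difference of 0.42 that did not pass (limma adjusted p = 0.568).

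The mean of 8 natural killer cell markers was 4.46 to 7.02 in BLZ945 and 4.39 to 5.77 in Vehicle. It was highest in BLZ945 6 (7.02) and in Vehicle 2 (5.77), while BLZ945 7 and Vehicle 7, also high in the PD-1 ligands, had 4.56 and 4.39. BLZ945 2, with the lowest Cd274 of its group (7.41), was close to Vehicle 2 at 5.73, and BLZ945 1 lay just below BLZ945 2. In each group the mouse highest in both PD-1 ligands also had the highest mean of these markers, while the other mice differed in order. The 10 T cell markers averaged 4.68 in BLZ945 6 and 4.36 in Vehicle 2, the highest of their groups, within ranges of 4.08 to 4.68 in BLZ945 and 3.98 to 4.36 in Vehicle. BLZ945 4 came close at 4.65, with the lowest Pdcd1lg2 of all mice (4.41). None of the 8 natural killer and 10 T cell markers passed between agents. The nearest was the granzyme gene Gzma (1.83, limma adjusted p = 0.0506), the brightest natural killer marker, and the next brightest, Klrd1, differed by -0.44. Gzmb, Prf1, Ncr1, Eomes and Tbx21 differed by 1.31, 0.42, 0.41, 0.40 and 0.33, and Klrk1 by -0.65. The median difference of the natural killer list was 0.41. The part of these cells in the values of BLZ945 6 and Vehicle 2 was not tested.

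The patterns closest to the other genes were led by Mgl2, a lectin gene, for Cd80 (r = 0.908) and by Usp8, a deubiquitinase gene, for Cd86 (0.937). Cnr2, the gene of a cannabinoid receptor of immune cells, stood nearest to Cd83 (0.960), and Med12, a Mediator subunit gene, to Icosl (0.959). Adam17, the gene of a membrane protease, followed Havcr2 most closely (0.922), and Mtfr1 did so for Cd200r1 (0.927).

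Of the 2 inhibitory receptors, Havcr2 was the steadiest of the 9 genes, with a pooled SD of 0.27. Its lowest, median and highest value were 9.39, 9.93 and 10.25 in BLZ945 mice, against 9.79, 9.93 and 10.41 in Vehicle mice. Of the BLZ945 mice, 3 lay below every Vehicle mouse, and the rest overlapped with them. Its difference was -0.15 with a 95% interval of -0.44 to 0.13 (limma adjusted p = 0.503), the narrowest of the 9.

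Cd200r1, the receptor of CD200, had a lowest, median and highest value of 6.80, 7.55 and 8.03 in BLZ945 mice, against 5.50, 6.91 and 7.74 in Vehicle mice. Of the Vehicle mice, 4 lay below every BLZ945 mouse, with Vehicle 2 lowest at 5.50, and Vehicle 5 lay above all but 2 BLZ945 mice. Mean Cd200r1 was 7.51 ± 0.39 in BLZ945 and 6.83 ± 0.71 in Vehicle (SD, n = 8 each), a difference of 0.68 with a 95% interval of 0.14 to 1.22 (limma adjusted p = 0.122). It passed with array weights (0.77, limma adjusted p = 0.0378) and with array SD as a covariate (1.01, 0.0029), did not pass with any 1 mouse left out (0.0596 to 0.201), and its adjusted p reached 0.548 over the other alternatives. Its ligand gene Cd200 was 4.96 ± 0.57 in BLZ945 and 5.16 ± 0.63 in Vehicle (SD, n = 8 each, limma adjusted p = 0.662).

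Sex, age and tumour volume gave no call for any of the 9 genes. The fit for sex with agent as covariate called 4 of 12394 genes (0.0323%), and at an unadjusted p under 0.05 it held 3 of the 9, Cd40, Cd83 and Pdcd1lg2, beside 9.8% of all genes. Females minus males differed most in Pdcd1lg2, which was 5.05 ± 0.34 in 9 females and 6.16 ± 1.37 in 7 males (SD, limma coefficient -1.11, adjusted p = 0.493), and in Cd40, which was 5.98 ± 0.36 and 6.94 ± 1.00 in these mice (limma coefficient -0.93, adjusted p = 0.484). BLZ945 6, Vehicle 2 and Vehicle 7 are all male. The interaction of agent and sex called 0 genes by limma, with 414 (3.34%) at an unadjusted p under 0.05, none of them among the 9.

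Within BLZ945, 5 genes (0.0403%) differed between mice of 13.14 and 11.29 weeks, and 3 of the 9 genes, Cd80, Cd86 and Havcr2, had an unadjusted p under 0.05, beside 18.7% of all genes. Cd80 was 4.08 ± 0.25 in the older and 5.16 ± 0.55 in the younger mice (SD, n = 4 each, limma coefficient -1.07, adjusted p = 0.148), without overlap, as in 9.03% of all genes. The Cd80 probe set that follows it overlapped, at 4.30 to 4.81 in the older and 4.49 to 5.34 in the younger mice. Cd86 was 9.43 ± 0.24 in the older and 10.21 ± 0.48 in the younger mice (SD, n = 4 each, limma coefficient -0.77, adjusted p = 0.184). Against tumour volume within BLZ945, limma called 0 genes, with 846 (6.83%) at an unadjusted p under 0.05, among them Icosl with a slope of -0.90 per doubling (SE 0.17, adjusted p = 0.653).

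Genes that work beside these 9 were taken from 6 lists, chosen like the 9 with earlier results of these data known, with 65 of 81 listed genes measured. Of these, 9 rose and 2 fell, beside 2.6% of all genes that rose and 5.34% that fell. In the list of CD40 and TNF receptor signalling to NF-kB, 3 of 16 rose and 0 fell, with a median difference of 0.29 beside 0.07 over all genes. Relb, an NF-kB subunit of the pathway downstream of CD40, was 7.13 ± 0.22 in BLZ945 and 6.34 ± 0.38 in Vehicle (SD, n = 8 each), a rise of 0.80 (limma adjusted p = 0.00301). Rela, the subunit of the canonical pathway, rose by 0.48, and its 8 BLZ945 values of 9.21 to 9.69 lay above its 8 Vehicle values of 8.71 to 9.17, as in either direction in 1.36% of all genes. Tnfaip3, a feedback inhibitor of NF-kB, rose by 0.71. These 3 calls held with any 1 mouse left out, and none held with age cohort or labelled volume as a covariate or in males alone. In mice of 11.29 weeks Relb held (limma adjusted p = 0.0408), and Rela (0.22) and Tnfaip3 (0.328) did not. In females Relb held as well (limma adjusted p = 0.0277), and Rela (0.147) and Tnfaip3 (0.058) did not. With volume as a covariate the difference was 1.04 for Relb (limma adjusted p = 0.0708), 0.21 for Rela (0.536) and 0.46 for Tnfaip3 (0.461). With age cohort it was 0.82 for Relb (0.0902), 0.43 for Rela (0.147) and 0.56 for Tnfaip3 (0.282).

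In the list of interferon gamma signalling to Cd274, 2 of 10 rose and 0 fell, with a median difference of 0.18. Ifngr2 encodes the signalling subunit of the receptor for interferon gamma, and it rose by 0.75, at 9.17 ± 0.39 in BLZ945 and 8.42 ± 0.39 in Vehicle (SD, n = 8 each; limma adjusted p = 0.0165). Irf8, a transcription factor of macrophage identity, rose by 0.49, at 10.88 ± 0.15 in BLZ945 and 10.39 ± 0.27 in Vehicle (SD, n = 8 each, limma adjusted p = 0.0144). Both calls held with any 1 mouse left out and ended within the mice of 11.29 weeks alone, where Ifngr2 differed by 0.65 (limma adjusted p = 0.266) and Irf8 by 0.67 (0.0801). With volume as a covariate Ifngr2 differed by 0.033 (limma adjusted p = 0.961) and Irf8 by 0.72 (0.106), and neither passed with age cohort or within 1 sex.

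Of 8 T cell receptors and partners of the 9 genes, 1 rose and 1 fell, with a median difference of 0.09. Lgals9, which encodes galectin-9, a described ligand of TIM-3, was 7.72 ± 0.82 in BLZ945 and 8.99 ± 0.56 in Vehicle (SD, n = 8 each), a fall of 1.27 (SE 0.31, limma adjusted p = 0.0158). With labelled volume as a covariate its difference turned to 1.12, and its call ended with age cohort (-1.08, limma adjusted p = 0.269), in mice of 11.29 weeks and within either sex. Icos, the T cell receptor of ICOS ligand, was 5.84 to 6.59 in BLZ945 and 5.15 to 5.96 in Vehicle and rose by 0.61 (limma adjusted p = 0.00709). Its call ended on the gene's most variable probe set (0.48, limma adjusted p = 0.204), in females (0.49, 0.188) and in males (0.73, 0.282). The call held with age cohort (0.97, limma adjusted p = 0.00517) or volume (1.41, 0.047) as covariate and in mice of 11.29 weeks (0.97, 0.0286). Of the 10 T cell markers 0 passed, with a median difference of 0.31; the brightest, Thy1, differed by -0.71 (95% interval -1.38 to -0.03) and Cd4 by 0.13, and Cd3d, Cd3e and Cd3g by 0.50, 0.33 and 0.44. Pdcd1, which encodes PD-1, differed by -0.09 (limma adjusted p = 0.885) and Ctla4 by 0.49 (0.223).

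In the list of other inhibitory receptors and ligands of myeloid cells, 3 of 15 rose and 1 fell, with a median difference of 0.16. The list was drawn broadly and also holds Ido1, Laptm5, Havcr1 and Timd2, none of which passed. Pilra, an inhibitory receptor of the paired immunoglobulin-like type, fell by 1.23, at 6.19 ± 0.61 in BLZ945 and 7.42 ± 0.24 in Vehicle (SD, n = 8 each, limma adjusted p = 0.00131). All 8 BLZ945 mice lay below the Vehicle mice, and 1.36% of all genes were so separated in either direction. With volume as a covariate Pilra differed by -0.26 (limma adjusted p = 0.714), and it did not pass in mice of 11.29 weeks (-1.32, 0.113) or in males (-1.67, 0.0898). Cd300a, an inhibitory receptor for phospholipids of dying cells, rose by 0.73 (limma adjusted p = 0.0108). It differed by 0.21 with volume (limma adjusted p = 0.717) and by 0.71 with age cohort (0.186) as covariate, and did not pass in mice of 11.29 weeks (0.251), females (0.0751) or males (0.231). Siglecf, a sialic acid-binding receptor, rose by 0.79 (limma adjusted p = 0.0345) and Sirpa, the receptor of the CD47 signal, by 0.43 (0.0394). The Siglecf call ended without any 1 of BLZ945 1, 3, 5, 6 and 7 or Vehicle 1, 4, 6 and 8 (limma adjusted p up to 0.0727). The Sirpa call ended without any 1 of BLZ945 1, 3, 5, 7 and 8 or Vehicle 1, 5, 6, 7 and 8 (up to 0.0846). Neither gene passed with array weights, with age cohort or volume as a covariate, in mice of 11.29 weeks or within either sex. Sirpa also did not pass as a mean of its probe sets (limma adjusted p = 0.088) or on its most variable one (0.237). Siglecf did not pass by the exact permutation test (adjusted p = 0.0769).

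No gene passed among 6 other B7 and butyrophilin family ligands, with a median difference of 0.11, or among 10 TNF superfamily ligands and receptors, with a median of 0.04. In the B7 list the nearest were Vsir, which encodes the checkpoint VISTA (0.33, limma adjusted p = 0.194), and Cd276, which encodes B7-H3 (-0.41, 0.29). In the TNF list they were Tnfsf9, the ligand of 4-1BB (-0.53, limma adjusted p = 0.0528), and Cd70, the ligand of CD27 (0.37, 0.122). At the unadjusted level 22.6% of all genes had p under 0.05 by limma.

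**Figure D4:**
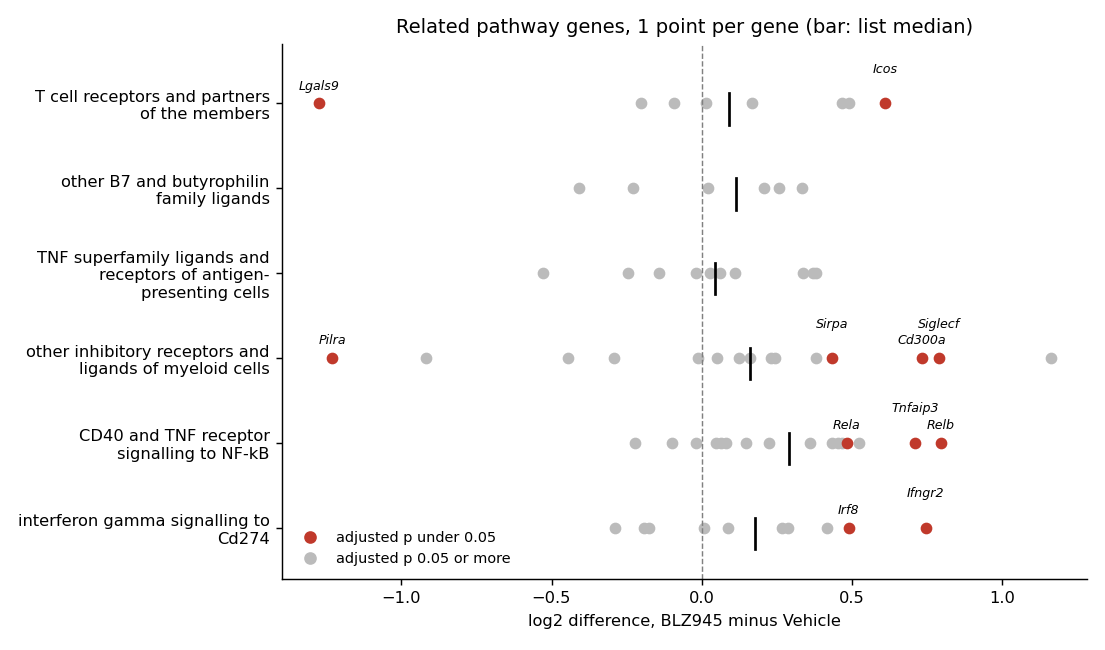
Log2 difference between BLZ945 and Vehicle for each measured gene (points) of the 6 related lists (rows), with the list median as a black bar and genes with an adjusted p under 0.05 in red and named. The 3 called genes of CD40 and TNF receptor signalling to NF-kB lie between 0.48 and 0.80, and Lgals9 and Pilra are the 2 that fell.

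Dendritic cell markers, whose cells carry several of these ligands at high level, averaged 6.54 to 7.65 in BLZ945 and 6.17 to 7.29 in Vehicle. Of 9 measured, 1 rose, the integrin gene Itgax (1.06, limma adjusted p = 0.0255), which activated microglia also express, and the list's median difference was 0.30. Fscn1, the brightest of the list, differed by 0.23. The others did not pass: Batf3, Xcr1, Zbtb46 and Cd209a differed by 0.83, 0.70, 0.51 and 0.30, and Flt3, Ccr7 and Irf4 by -0.20, -0.21 and -0.61. Among 6 B cell markers, 1 rose, the lectin gene Cd22 (1.27, limma adjusted p = 0.000211), while Cd79a, Cd79b and Ms4a1 differed by -0.08, 0.00 and 0.57 and did not pass. Neutrophil and endothelial markers, 6 each, gave 0 calls by limma, with S100a9, S100a8, Flt1 and Kdr, the brightest, at -0.10, -0.54, 0.48 and -0.02. The part of such cells in the rise of Cd83 was not tested.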

How the data were processed

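The deposited values are log2 expression per probe set in 16 arrays, which the authors normalized before deposit; GCOS 1.4 and RMA are named, without roles, per the submitters' processing notes. RMA is known to compress differences of dim probe sets. Neither the implementation of RMA nor a genome build is given in the sources used here, and scanner intensities were not analysed here. Probe sets were named through the platform annotation: of 22690, 20393 had 1 symbol, 691 several and 1606 none. The brightest probe set stood for each of 12394 genes. The agents were compared with limma 3.58.1 (R 4.3.3) and eBayes, without covariates, with Benjamini-Hochberg adjustment over all genes. Sex, the interaction, age and volume within BLZ945 were fitted alike. Scripts were tested on simulated data. Each array is 1 mouse, and precision is set by how many arrays there are.

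The 9 genes and all lists were chosen with earlier results of these data known. All 9 are named; per related list up to 4 called genes of smallest p are named, or else the nearest 2, and per marker list the brightest 2. Cd200, Pdcd1, Ctla4 and the other markers named were singled out after their values were seen. Alternatives covered the probe set, dim genes, normalization, weights, covariates, subsets, each mouse left out, a replicate block and an exact permutation test. Replicate numbers did not pair the mice: same-numbered mice correlated at -0.48 to 0.39.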

Additional observations from a re-analysis of the deposited data

Results flagged for a closer look

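Of 40 sets of 8 mice examined (the 9 genes and the called genes of the related lists within each agent), 2 held a mouse standing apart from its group by Dixon's ratio, above its 95% critical value; chance alone would do so in about 5% of such sets. Cd40 was 8.01 in BLZ945 6, with the next highest BLZ945 mouse at 6.64, a gap of 0.567 of the group's range. Cd86 was 8.45 in Vehicle 1, with the next lowest Vehicle mouse at 9.16, a gap of 0.559 of the range. Without BLZ945 6 or without Vehicle 1 neither gene passed between agents.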

How the results depend on the processing

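Over all genes, 984 calls became 215 with age cohort, 15 with volume and 1644 with array SD as covariate, and 89 in mice of 11.29 weeks, 393 in females and 2 in males. With 1 mouse left out there were 710 to 1188. Of the calls, 67.3% were lower ones, against 57.3% with repeated quantile normalization and 47.3% with array SD (866 higher, 778 lower). Of the 9 genes, 2 passed with array weights and 3 with array SD; 0 passed with age cohort, with volume, in mice of 11.29 weeks or in males, and always 1 with a mouse left out. Older against younger BLZ945 mice gave 2 calls in place of 5 without dim genes. The causes were not tested; the subsets hold fewer mice.

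Uncalled differences changed sign as follows. Age cohort and the 11.29-week subset gave Cd80 0.28, Cd40 0.070, Pdcd1lg2 0.57, Icosl 0.046 and Havcr2 0.0062. Volume gave Cd40 0.014, Pdcd1lg2 0.13, Icosl 1.44, Cd200r1 -0.58 and, among called genes, Lgals9 1.12. Array SD gave Cd80 0.11 and Pdcd1lg2 0.064, and males gave Cd80 0.25 and Pdcd1lg2 0.36. Pdcd1lg2 was 0.13 with array weights, 0.034 with sex and -0.45 to 0.20 with a mouse left out. Cd80 was 0.11 as a mean of probe sets and 0.30, 0.14 and 0.19 on its other probe sets, and Icosl 0.095 on its second. With the replicate number as a block, 873 genes passed, and among the called genes of the related lists and Cd83 only the call of Sirpa ended (0.0667); the called marker genes were not run under the alternatives.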
